A study of Mus musculus with 6 samples.

Results

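Ribosome biogenesis genes were followed in bone marrow cells sorted and labelled as hematopoietic stem cells (HSCs), the self-renewing cells of the bone marrow that all blood lineages descend from, after exposure of mice to ionizing radiation. The set holds 56 genes of the nucleolus, of RNA polymerase I (Pol I) and of pre-rRNA processing, chosen by name from 21851 genes in the files; all 56 were present, all are protein-coding, and all passed the filter on low values. RNA-seq was done on HSCs of irradiated WT mice (labelled IR, 3 libraries) and of control WT mice (labelled Ctrl, 3 libraries). The cells came from bone marrow by a sort for lineage-negative cells that carry Sca-1, c-Kit and CD150 and lack Flt3 and CD48. No source used here gives the dose, how long after exposure the cells were sorted, the age or sex of the mice, or how many mice made up a library. Whether each library is a different animal is likewise not stated, so p-values measure the spread between these libraries, which may be technical.

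Ribosomes are built in the nucleolus. Pol I copies the rDNA into a long precursor, small nucleolar RNPs (snoRNPs) modify it at sites chosen by their guide RNAs, and separate sets of processing factors cut and fold it into the small and the large subunit. The transcription factor MYC is known to drive genes at each of these steps. HSCs are known for a low rate of protein synthesis, so the supply of ribosomes is a studied property of these cells.

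Levels are in FPKM, as the authors deposited them: fragments scaled both to 1 kb of transcript and to 1000000 mapped fragments. The files state no unit, so it was judged from the values themselves and from the use of StringTie. FPKM is a share of each library, so the amount of RNA per cell was not measured, and in these bulk samples fewer cells of a type and less RNA per cell cannot be told apart. The steps between low values corresponded to about 14400000 to 15800000 fragments in IR libraries and 14400000 to 16300000 in Ctrl libraries, so that 1 FPKM over 1 kb rests on about 14.4 to 16.3 fragments; these depths are estimates. Differences were tested with limma on log2(FPKM + 1) over 10281 genes that reached 1 FPKM in 3 or more libraries, with Benjamini-Hochberg adjustment over all of them; "rose" and "fell" mean an adjusted p under 0.05. Log2 fold changes are IR over Ctrl on that scale, which understates the change of low genes, and plain folds are ratios of mean FPKM.

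The RNA of 3 genes of the sort did not follow its gate, while Ly6a (Sca-1) and Kit averaged 157 and 96.7 FPKM in the IR libraries and 203 and 97.5 FPKM in the controls. Cd48, which the gate excludes, had 359, 343 and 352 FPKM in the IR libraries and 396, 401 and 403 FPKM in the controls, and Flt3, also excluded, had 64.4, 67.2 and 65.5 FPKM in the IR libraries and 126, 124 and 127 FPKM in the controls. Slamf1, which encodes the selected CD150, had only 5.13, 5.46 and 4.58 FPKM in the IR libraries and 3.14, 3.61 and 3.95 FPKM in the controls. RNA and surface protein can differ, and the makeup of the sorted cells was not tested, so values below are those of the libraries labelled HSC.

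Most ribosome biogenesis genes had slightly higher levels in the IR libraries. Of the 56 genes 35 rose, 3 fell and 18 were not called; over all genes tested 25.8% were called higher and 28.9% lower, against 62.5% and 5.36% of the set. The median log2 fold change of the 56 was 0.13, beside -0.01 over all genes tested, and single values ran from -0.18 for Polr1c to 0.49 for Rrp12. The largest ratios of mean FPKM were 1.44-fold in Rrp12 and 1.44-fold in Heatr1. Calls in either direction took in 38 of the 56, beside 54.7% of all genes tested. The groups did not overlap in 43 of the 56 genes, beside 61.7% of all genes tested: in 39 every IR library lay above every Ctrl library (29.1% of all genes tested did so) and in 4 every IR library lay below (32.5%). Among the 7437 genes that averaged 5 FPKM or more, as all of the 56 but Utp20 did, 57.3% were called, 27.8% higher and 29.5% lower, and 63.6% did not overlap, 30.9% with IR above and 32.8% with IR below. The 56 genes together took 0.934%, 0.937% and 0.939% of summed FPKM in IR replicates 1 to 3, against 0.854%, 0.861% and 0.855% in Ctrl replicates 1 to 3. Without Npm1, the most abundant of them, their sum was 3827 to 3897 FPKM in IR libraries and 3494 to 3513 FPKM in Ctrl libraries.

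**Figure D1:**
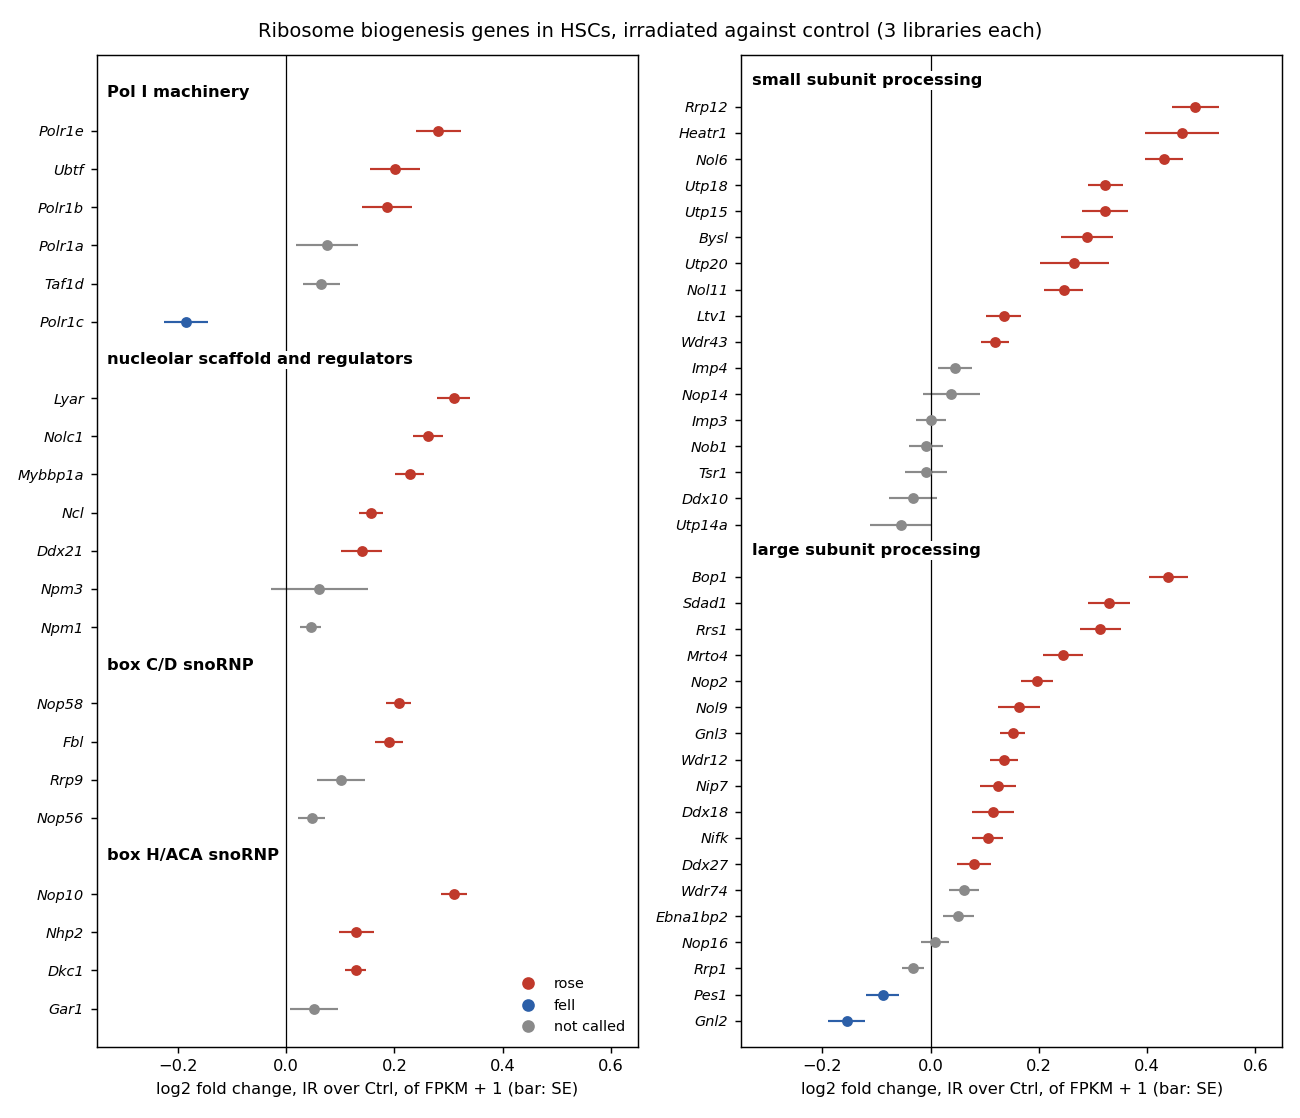
Log2 fold change (IR over Ctrl, of FPKM + 1) of each of the 56 genes, grouped by role, with the standard error as a bar and the call by colour; 3 libraries per group. Over the 6 role groups 48 of the 56 points lie right of 0, and the 3 genes that fell are Polr1c, Gnl2 and Pes1.

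**Figure D2:**
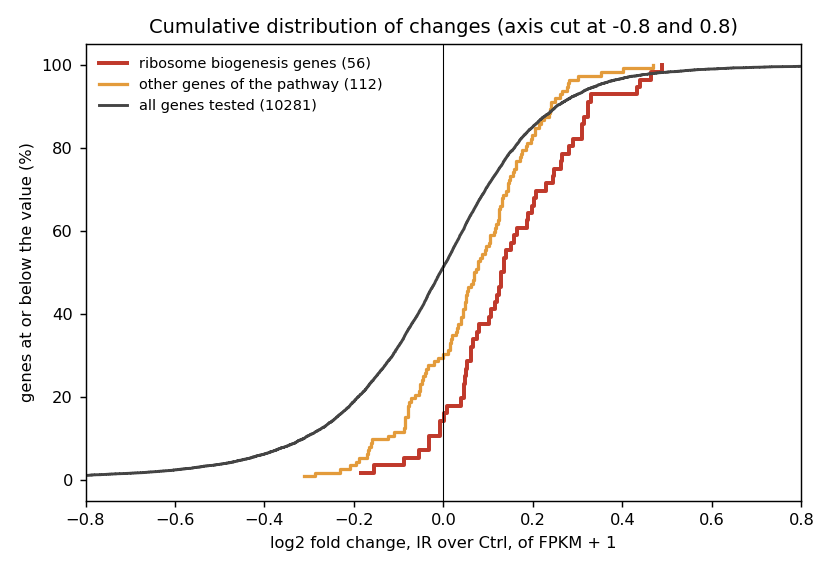
Cumulative share of genes (%) at or below each log2 fold change, for the 56 ribosome biogenesis genes, 112 other genes of the pathway and all 10281 genes tested. The curve of the 56 genes crosses the 50% level near its median of 0.13 and that of all genes near -0.01.

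Counts by role group and outside list, here and below, stand beside 25.8% of all genes tested called higher and 28.9% called lower. Among the Pol I genes 3 of 6 rose, 1 fell and 2 were not called. Polr1e, which encodes a peripheral subunit of the polymerase, had 17.9, 18.5 and 17.2 FPKM in irradiated replicates 1 to 3, against 14.1, 15.0 and 14.5 FPKM in control replicates 1 to 3. All IR libraries lay above all controls (log2 fold change 0.28, SE 0.041, limma adjusted p = 0.00028). Ubtf, the HMG-box factor that binds rDNA and opens it to Pol I, had 22.4, 25.0 and 24.1 FPKM in the IR libraries and 21.5, 19.9 and 20.4 FPKM in the controls, again without overlap, and rose 1.16-fold (log2 fold change 0.20, SE 0.046, limma adjusted p = 0.00405). Polr1c, a subunit that Pol I shares with Pol III, went the other way, with 51.4, 51.2 and 46.3 FPKM in irradiated replicates 1 to 3, against 55.7, 57.1 and 56.6 FPKM in control replicates 1 to 3. Every IR library was below every control (log2 fold change -0.18, SE 0.040, limma adjusted p = 0.00306), with IR replicate 3 the lowest. Polr1b, the second-largest subunit, rose by 0.19 on the log2 scale (IR 19.5 ± 1.22 FPKM, Ctrl 17.0 ± 0.144 FPKM, SD, n = 3 each, as for all values with ±). Polr1a, the catalytic subunit, was not called at 6.09 ± 0.386 FPKM in the IR libraries and 5.72 ± 0.284 FPKM in the Ctrl libraries (95% interval of the log2 fold change -0.05 to 0.20), and neither was Taf1d, part of the promoter factor SL1, whose IR libraries nevertheless all lay above the controls (25.8 ± 0.641 FPKM in the IR libraries and 24.6 ± 0.438 FPKM in the Ctrl libraries). The ratio of Polr1e to Polr1c was 0.348, 0.361 and 0.372 in the IR libraries and 0.253, 0.262 and 0.257 in the Ctrl libraries, as the opposite changes of these genes fix.

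The other Pol I genes, from a list outside the 56, were divided too. Among 10 of them there were 4 that rose, 2 that fell and 4 with no call (median 0.06). The subunits of SL1 differed in direction: Taf1c had 7.20, 7.50 and 7.03 FPKM in the IR libraries and 5.38, 5.80 and 5.92 FPKM in the controls and Taf1a 8.35, 8.58 and 9.34 FPKM in the IR libraries and 6.86, 7.13 and 7.45 FPKM in the controls, whereas Taf1b had 31.1, 28.9 and 30.9 FPKM in the IR libraries and 34.7, 36.6 and 35.7 FPKM in the controls. Taf1c and Taf1a rose by 0.30 and 0.26 on the log2 scale with no overlap between groups, and Taf1b fell (log2 fold change -0.23), with all IR libraries below the controls.

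Genes for scaffold and regulatory proteins of the nucleolus rose in 5 of 7 cases, and none fell. Npm1, which encodes nucleophosmin and was the most abundant gene of the set, had 710.4, 694 and 694 FPKM in irradiated replicates 1 to 3, against 664, 691 and 680.2 FPKM in control replicates 1 to 3. The lowest IR library was only a few FPKM above the highest control, and the difference was not called (log2 fold change 0.05, 95% interval 0.00080 to 0.089, limma adjusted p = 0.0786); without Ctrl replicate 2 it was (adjusted p = 0.0487). Lyar, a zinc-finger protein of the nucleolus tied to cell growth, had 59.9, 62.0 and 63.0 FPKM in the IR libraries and 49.0, 50.8 and 48.7 FPKM in the controls. It rose 1.24-fold without overlap (log2 fold change 0.31, SE 0.031, limma adjusted p = 2.15e-05). Nolc1, a chaperone of snoRNPs that moves between nucleolus and Cajal bodies, had 53.9, 52.4 and 53.7 FPKM in the IR libraries and 43.9, 44.2 and 44.8 FPKM in the controls, also without overlap (log2 fold change 0.26, SE 0.027, limma adjusted p = 3.08e-05). Mybbp1a, a nucleolar regulator of Pol I transcription, had 77.3 ± 1.57 FPKM in the IR libraries and 65.8 ± 1.09 FPKM in the Ctrl libraries. It rose by 0.23, nucleolin (Ncl) by 0.16 and the helicase gene Ddx21 by 0.14 on the log2 scale. Npm3, a nucleophosmin relative with an annotated pseudogene that could share its reads, was not called at 9.01 ± 1.47 FPKM in the IR libraries and 8.53 ± 0.511 FPKM in the Ctrl libraries, and its 95% interval of -0.14 to 0.26 was the widest of the 7. Pseudogenes were counted only where named after their gene, so other genes of the set may have some that were missed.

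Genes of the set for box C/D snoRNP proteins, which carry out the methylation of rRNA, rose in 2 of 4 cases. The methyltransferase fibrillarin (Fbl) had 126, 130.2 and 125 FPKM in irradiated replicates 1 to 3, against 109, 110.4 and 114 FPKM in control replicates 1 to 3. The core protein Nop58 had 122, 124 and 126 FPKM in the IR libraries and 108, 105 and 108 FPKM in the controls. Both rose with all IR libraries above all controls (log2 fold change 0.19, SE 0.026, limma adjusted p = 0.000196 for Fbl; log2 fold change 0.21, SE 0.024, limma adjusted p = 5.28e-05 for Nop58). Nop56, the partner of Nop58 in the same particle, had 208, 208 and 212 FPKM in the IR libraries and 196, 206 and 205 FPKM in the controls. Here the lowest IR library exceeded the highest control by little, and the change was not called (log2 fold change 0.05, 95% interval -0.01 to 0.10). Rrp9, specific to the snoRNP of early pre-rRNA cleavage, had 53.5, 53.8 and 58.1 FPKM in the IR libraries and 48.6, 53.9 and 51.5 FPKM in the controls. Its groups overlapped (limma adjusted p = 0.0726), and without Ctrl replicate 2 the call changed (adjusted p = 0.0321).

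Genes for the box H/ACA proteins, which make pseudouridine in rRNA and also sit on telomerase RNA, rose in 3 of 4 cases. Nop10, a very small subunit (chromosome 2, 112261926 to 112263269, GRCm38), had 438, 462 and 444 FPKM in irradiated replicates 1 to 3, against 361, 356 and 366 FPKM in control replicates 1 to 3. Its IR libraries were all higher, by 1.24-fold in the mean (log2 fold change 0.31, SE 0.023, limma adjusted p = 3.91e-06). Dkc1, the pseudouridine synthase dyskerin, had 181, 181 and 179.5 FPKM in the IR libraries and 165, 164 and 166 FPKM in the controls and Nhp2, an RNA-binding subunit, 213, 234 and 224 FPKM in the IR libraries and 209, 201 and 203 FPKM in the controls. Both rose without overlap, by 0.13 and 0.13 on the log2 scale. Gar1 had 42.4, 45.4 and 42.7 FPKM in the IR libraries and 40.5, 44.8 and 40.6 FPKM in the controls; its groups overlapped and it was not called (95% interval -0.05 to 0.15).

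Genes for factors that help to assemble snoRNPs, and the gene for the box C/D protein Snu13, form a list outside the 56. Of these 9 genes 6 rose and 1 fell (median 0.13). Snu13, which stands in the files as Nhp2l1 and binds box C/D RNA, had 288, 289.6 and 292 FPKM in the IR libraries and 259, 259 and 259 FPKM in the controls. It rose 1.12-fold, with no overlap between groups. Nufip1 had 15.8, 15.9 and 16.7 FPKM in the IR libraries and 13.8, 13.8 and 13.7 FPKM in the controls. The ATPase gene Ruvbl1 had 170.4, 169 and 164 FPKM in the IR libraries and 157, 154 and 154 FPKM in the controls. Both also rose without overlap, by 0.21 and 0.11 on the log2 scale.

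Genes of the small subunit held the largest rises, and were split between rise and no call: 10 of 17 rose, none fell and 7 were not called. Rrp12 (chromosome 19, 41862851 to 41896173), known from yeast for the maturation and export of pre-ribosomes, had 16.0, 15.7 and 15.8 FPKM in irradiated replicates 1 to 3, against 11.4, 10.4 and 11.2 FPKM in control replicates 1 to 3. The groups were far apart relative to their spread (log2 fold change 0.49, SE 0.043, limma adjusted p = 1.04e-05). Heatr1 (chromosome 13, 12395027 to 12440289), part of the complex that binds the precursor while it is made, had 10.5, 8.71 and 10.1 FPKM in the IR libraries and 7.29, 6.46 and 6.66 FPKM in the controls. It rose 1.44-fold, with the lowest IR library, replicate 2, still above the highest control (log2 fold change 0.46, SE 0.069, limma adjusted p = 0.000293). Wdr43, another protein of that early complex and the most abundant gene of this group, had 95.9, 93.0 and 94.4 FPKM in the IR libraries and 86.1, 89.1 and 85.4 FPKM in the controls, a smaller rise without overlap (log2 fold change 0.12, SE 0.026, limma adjusted p = 0.00336). Utp15 and Nol11 belong to the same complex. Utp15 had 26.1, 25.0 and 27.1 FPKM in the IR libraries and 21.4, 20.8 and 19.7 FPKM in the controls, and Nol11 had 48.3 ± 0.964 FPKM in the IR libraries and 40.6 ± 1.74 FPKM in the Ctrl libraries. Both rose without overlap, Utp15 by 0.32 and Nol11 by 0.25 on the log2 scale. Nol6, a subunit of the small-subunit processome, had 19.0, 18.8 and 19.1 FPKM in the IR libraries and 14.0, 13.8 and 13.7 FPKM in the controls, and rose without overlap (log2 fold change 0.43, SE 0.035, limma adjusted p = 5.49e-06).

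Among the remaining small-subunit genes, the processome gene Utp18 had 29.3, 30.1 and 29.0 FPKM in the IR libraries and 23.4, 23.7 and 23.0 FPKM in the controls. It rose by 0.32 on the log2 scale with no overlap, Utp20 by 0.27, the assembly factor gene Bysl by 0.29 and Ltv1, which binds the late small subunit, by 0.13. Utp20 was the least abundant gene of the set, at 1.83 to 2.69 FPKM over the 6 libraries. The 7 that were not called lay between log2 fold changes of -0.05 and 0.05, and in each the groups overlapped. Imp3, Imp4 and Nop14, which act with the early processome, were at 0.00, 0.05 and 0.04, and Utp14a and the helicase gene Ddx10 at -0.05 and -0.03. Nob1, the endonuclease of the last cut in small-subunit rRNA, stood at 75.8 ± 0.973 FPKM in the IR libraries and 76.3 ± 2.88 FPKM in the Ctrl libraries and Tsr1, a late assembly factor, at 13.9 ± 0.101 FPKM in the IR libraries and 14.0 ± 0.500 FPKM in the Ctrl libraries. For Nob1 the 95% interval of the log2 fold change was -0.08 to 0.06 and for Tsr1 -0.10 to 0.08, so that rises of the size seen in Rrp12 lie outside them.

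In the list of other small-subunit genes 16 of 38 rose, 4 fell and 18 were not called (median 0.07). Tbl3, a processome WD-repeat protein, had 67.2, 69.1 and 71.9 FPKM in the IR libraries and 56.7, 54.0 and 51.6 FPKM in the controls. It rose 1.28-fold without overlap. Pno1, which binds the late small subunit beside Nob1, had 79.3, 83.8 and 80.7 FPKM in the IR libraries and 67.1, 69.0 and 69.6 FPKM in the controls. Noc4l had 87.8, 84.4 and 83.2 FPKM in the IR libraries and 72.0, 70.7 and 73.4 FPKM in the controls. Both rose without overlap, by 0.24 and 0.24 on the log2 scale.

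Large-subunit genes rose in 12 of 18 cases, 2 fell and 4 were not called. Bop1 (chromosome 15, 76452989 to 76477277), which encodes a WD-repeat protein of large-subunit rRNA processing, had 77.8, 74.1 and 81.5 FPKM in irradiated replicates 1 to 3, against 56.8, 58.6 and 56.0 FPKM in control replicates 1 to 3. This was the largest rise of the group (log2 fold change 0.44, SE 0.036, limma adjusted p = 6.56e-06), and the groups were well apart. Pes1, whose protein forms the PeBoW complex with those of Bop1 and Wdr12, had 47.5, 50.4 and 49.2 FPKM in the IR libraries and 52.7, 51.4 and 52.5 FPKM in the controls. All IR libraries lay below all controls, by a small margin (log2 fold change -0.09, SE 0.030, limma adjusted p = 0.0311). The Pes1 call was lost without IR replicate 1, IR replicate 3, Ctrl replicate 1 or Ctrl replicate 3, with limma adjusted p values of 0.110, 0.0622, 0.0891 and 0.0789 and log2 fold changes of -0.07 to -0.09. It was also lost with quantile normalization and without limma's trend (adjusted p = 0.0520 and 0.0638). Wdr12 rose in between, at 70.0 ± 0.686 FPKM in the IR libraries and 63.6 ± 1.14 FPKM in the Ctrl libraries (log2 fold change 0.14). The ratio of Bop1 to Pes1 was 1.64, 1.47 and 1.66 in the IR libraries and 1.08, 1.14 and 1.07 in the Ctrl libraries. That of Wdr12 to Pes1 was 1.49, 1.38 and 1.41 in the IR libraries and 1.18, 1.26 and 1.22 in the Ctrl libraries. These genes were picked for their opposite changes, which fix the direction of both ratios.

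Gnl2, a nucleolar GTPase needed for export of the large subunit, was the other gene that fell, with 53.6, 50.4 and 53.6 FPKM in irradiated replicates 1 to 3, against 60.6, 57.5 and 57.7 FPKM in control replicates 1 to 3. No libraries overlapped (log2 fold change -0.16, SE 0.035, limma adjusted p = 0.00355). Its relative Gnl3, which encodes nucleostemin, rose instead, at 160.2 ± 2.77 FPKM in the IR libraries and 144 ± 2.01 FPKM in the Ctrl libraries. Sdad1, known from yeast for maturation and export of the large subunit, had 13.5, 13.9 and 13.4 FPKM in the IR libraries and 10.8, 10.5 and 10.5 FPKM in the controls. It rose 1.28-fold without overlap (log2 fold change 0.33, SE 0.039, limma adjusted p = 7.08e-05). Rrp1, the most abundant gene of the group, had 193, 193 and 197 FPKM in the IR libraries and 197, 198 and 199.8 FPKM in the controls. IR replicate 3 and Ctrl replicate 1 nearly met, and the difference was not called (log2 fold change -0.03, 95% interval -0.08 to 0.01).

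The other large-subunit genes that rose covered log2 fold changes of 0.08 to 0.31. Rrs1, which with its partner Rpf2 brings the smallest rRNA into the large subunit, had 54.1, 57.8 and 58.2 FPKM in the IR libraries and 44.9, 44.1 and 47.2 FPKM in the controls. It rose by 0.31 on the log2 scale, and the lowest IR library stood well above the highest control. Mrto4, a stand-in for a stalk protein during assembly with 2 annotated pseudogenes, rose by 0.24 and the rRNA methyltransferase gene Nop2 by 0.20. Nol9, a polynucleotide kinase, rose by 0.16, Nip7 by 0.12 and Nifk, which binds the Ki-67 protein, by 0.11. The helicase genes Ddx18 and Ddx27 rose by 0.12 and 0.08, close to the threshold. Each lost its call without IR replicate 2, IR replicate 3, Ctrl replicate 1 or Ctrl replicate 3 (limma adjusted p = 0.0518 to 0.142 for Ddx27 and 0.0600 to 0.105 for Ddx18), and Ddx27 also without Ctrl replicate 2 (adjusted p = 0.153). Both calls were also lost without limma's trend (adjusted p = 0.0885 for Ddx27 and 0.0606 for Ddx18), and that of Ddx27 with no filter (adjusted p = 0.0518) and with a pseudocount of 0.1 (just above 0.05). Wdr74, Ebna1bp2 and Nop16 were not called, at 0.06, 0.05 and 0.01, although Wdr74 was without Ctrl replicate 2 (adjusted p = 0.034).

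In the list of other large-subunit genes 17 of 38 rose, 4 fell and 17 were not called (median 0.07). Nop53, which the files carry as Gltscr2 and which links the nuclear exosome to the pre-ribosome, fell furthest. It had 156, 165 and 156 FPKM in the IR libraries and 199, 198 and 195 FPKM in the controls, with no overlap and a ratio of 0.805 (log2 fold change -0.31, SE 0.026, limma adjusted p = 7.52e-06). Noc2l had 103, 102 and 102 FPKM in the IR libraries and 86.8, 84.3 and 89.9 FPKM in the controls. Rsl1d1 had 225, 216 and 219 FPKM in the IR libraries and 193, 195 and 193 FPKM in the controls. These genes for nucleolar proteins rose without overlap, by 0.24 and 0.18 on the log2 scale. Over the 5 lists of other pathway genes together, 48 of 112 rose and 17 fell, which is 42.9% and 15.2% beside 25.8% and 28.9% of all genes tested.

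**Figure D3:**
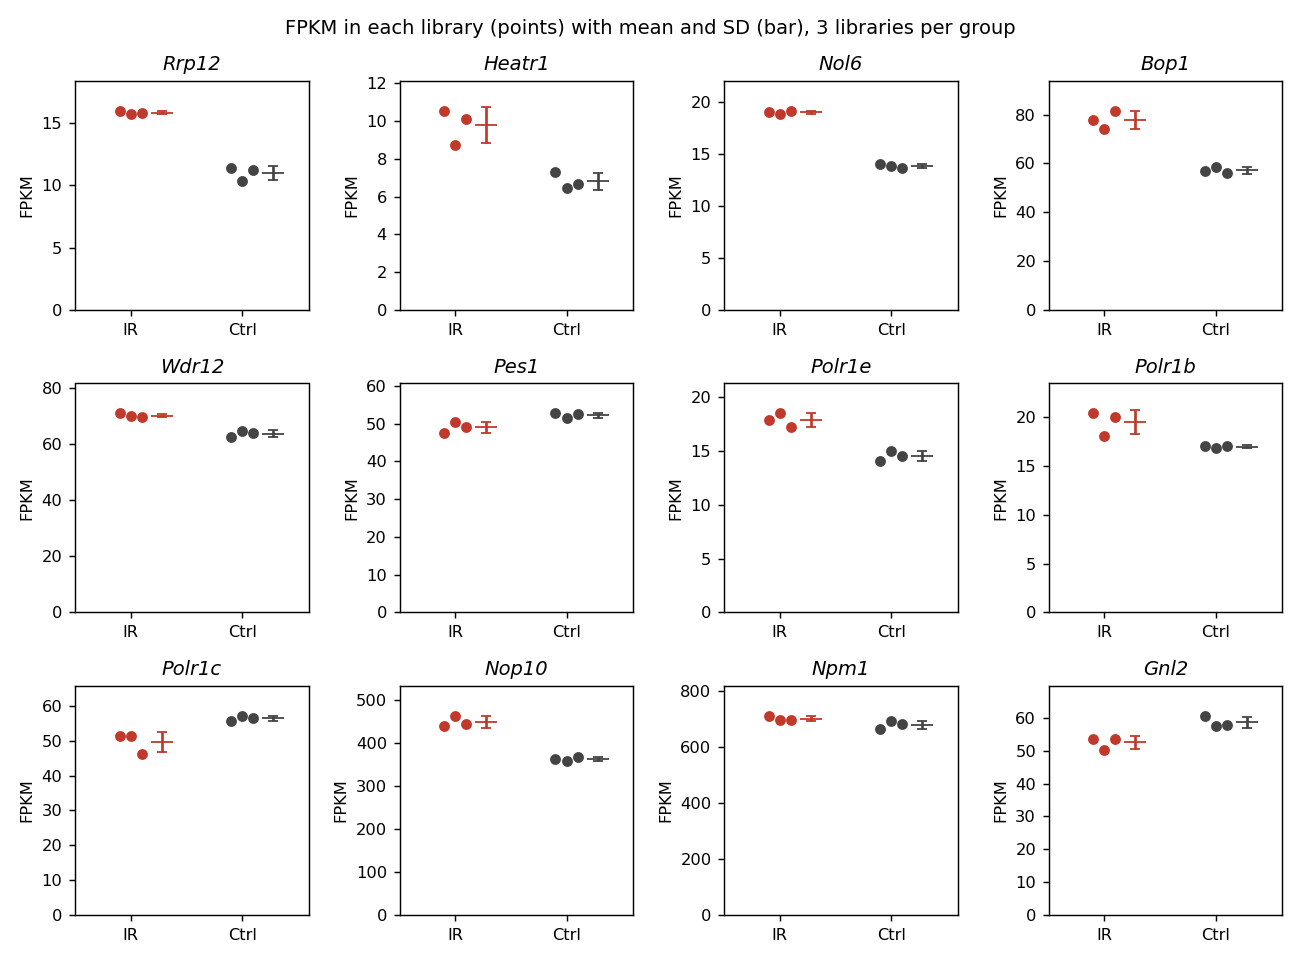
FPKM of 12 ribosome biogenesis genes in each of the 3 IR and 3 Ctrl libraries (points) with the mean and SD beside them; axes start at 0. The IR points of Rrp12, Heatr1, Nol6 and Bop1 lie clear above the Ctrl points, those of Polr1c, Pes1 and Gnl2 lie below, and the lowest IR point of Npm1 lies just above its highest Ctrl point.

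Myc, an upstream regulator of this pathway and not one of the 56 genes, had 338, 345 and 345 FPKM in irradiated replicates 1 to 3, against 237, 239 and 235 FPKM in control replicates 1 to 3. It rose 1.44-fold (log2 fold change 0.53, SE 0.019, limma adjusted p = 3e-08), with no overlap. Max, its binding partner, had 4.51, 3.93 and 3.88 FPKM in the IR libraries and 4.98, 5.05 and 5.15 FPKM in the controls, and was lower in every IR library (log2 fold change -0.25, SE 0.059, limma adjusted p = 0.00523). Mlx, which pairs with MXD proteins, had 27.0, 27.6 and 27.5 FPKM in the IR libraries and 24.0, 24.6 and 24.4 FPKM in the controls, and rose by 0.16 on the log2 scale without overlap. Of 9 tested MYC network genes 3 were called higher and 3 lower (33.3% each), near the 25.8% and 28.9% of all genes tested. Whether the rise of Myc RNA has a part in the values of the 56 genes was not tested.

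MYC-MAX dimers are known to bind the E-box letters CACGTG, and ETS factors bind sites around CCGGAAG, so the RefSeq promoter windows (GRCm38.p6, 250 bases before to 50 after a start site) were searched on both strands. Windows were found for 49 of the 56 genes; Bop1, Fbl, Gnl2, Nol6, Npm1, Rrp12 and Rrs1 had none. CACGTG stood in those of 11 genes (22.4%), beside 12.1% of 8020 tested genes with a window, and CCGGAAG in those of 15 (30.6%), beside 22.2%. Of the 11 genes with CACGTG 8 rose, 1 fell and 2 were not called. Of the 38 without it 22 rose, 1 fell and 15 were not called. Both stand beside 62.5% of the 56 genes called higher and 5.36% lower, and 25.8% and 28.9% of all genes tested. Whether the letters have a part in the calls was not tested. The median log2 fold change was 0.20 with the letters and 0.12 without, and for CCGGAAG it was 0.12 with and 0.13 without. These medians leave out the genes with no window. Of those, Rrp12, Bop1, Nol6, Rrs1 and Fbl rose by 0.49, 0.44, 0.43, 0.31 and 0.19, Gnl2 had -0.16 and Npm1 0.05. These are matches of letters and not bound sites. The median GC content of the windows was 58.0% for the 49 genes and 60.7% for the tested genes. Of 6 other motifs searched, the GC box GGGCGG was in 71.4% of the gene set and 69.3% of tested genes, the CCAAT box in 38.8% and 43.9%, TATAAA in 8.16% and 7.89%, and the palindromic element of housekeeping promoters centred on CGCG in 2.04% and 1.26%. The NRF1 palindrome and the YY1 letters GCCATCTTG were in none of the 49 windows and in 2.64% and 2.96% of tested genes.

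The windows below show the E-box in genes that rose, that fell and that were not called, 5′ to 3′ on the gene's strand, with CACGTG and any whole CCGGAAG in capitals. The genes shown are those with the largest rises among the 11 (Sdad1 and Utp18), 2 with the match well before the start (Nol11 and Nop2), the gene that fell (Pes1) and the 2 that were not called (Tsr1 and Imp4).
Sdad1, chr5:92309986-92310015, minus strand: agcggcgtgtccCACGTGccgtttccggtt
Utp18, chr11:93885769-93885798, minus strand: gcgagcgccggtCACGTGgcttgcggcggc
Nol11, chr11:107189392-107189451, minus strand: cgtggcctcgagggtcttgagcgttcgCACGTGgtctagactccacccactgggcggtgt
Nop2, chr6:125131796-125131855, plus strand: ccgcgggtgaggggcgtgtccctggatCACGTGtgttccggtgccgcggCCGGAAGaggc
Pes1, chr11:3963965-3963994, plus strand: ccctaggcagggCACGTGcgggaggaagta
Tsr1, chr11:74898092-74898121, plus strand: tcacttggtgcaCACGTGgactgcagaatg
Imp4, chr1:34439681-34439740, plus strand: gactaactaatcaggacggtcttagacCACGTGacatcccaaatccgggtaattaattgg
The first base of CACGTG lay at position 22 after the start in Sdad1, 3 in Pes1 and 25 in Tsr1, and 20, 43, 60 and 121 bases before it in Utp18, Nol11, Nop2 and Imp4. Sdad1 and Utp18 rose by 0.33 and 0.32, Nol11 and Nop2 by 0.25 and 0.20, and Pes1, with the match next to its start, had -0.09. The Nop2 window also holds CCGGAAG downstream of its E-box.

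ETS letters likewise stood near the start of genes that moved in opposite directions. They are shown, with CCGGAAG or its reverse complement in capitals, for Heatr1 and Nolc1, which rose, and for the Pol I subunits Polr1e and Polr1c, which rose and fell.
Heatr1, chr13:12395348-12395377, plus strand: gtagtgagaagCCGGAAGttcctatgaggc
Nolc1, chr19:46075822-46075851, plus strand: cgcgtgtgggaCCGGAAGcaacttctagat
Polr1e, chr4:45018623-45018652, plus strand: ctagaatgtcaCTTCCGGtttttgagtccg
Polr1c, chr17:46248054-46248113, minus strand: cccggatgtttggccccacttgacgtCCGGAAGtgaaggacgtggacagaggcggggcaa
The match began 16, 14 and 42 bases before the start in Heatr1, Nolc1 and Polr1c and at position 26 after it, in reverse orientation, in Polr1e.

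The 56 genes also varied in level, transcript length and overlap with other genes. Their median level was 50.8 FPKM, beside 13.2 FPKM over all genes tested. Counts in this paragraph stand beside 62.5% of the 56 called higher and 5.36% called lower, and 25.8% and 28.9% of all genes tested. Of the 13 with a mean under 20 FPKM 8 rose and none fell (median 0.27), of the 32 from 20 to under 100 FPKM 19 rose and 3 fell (median 0.12), and of the 11 at 100 FPKM or more 8 rose and none fell (median 0.13). Genes of the set with longer transcripts tended to have higher log2 fold changes: across the 56 genes, measured in the same libraries, Spearman's rho between the longest annotated coding transcript and the log2 fold change was 0.35, beside 0.09 over 9916 tested genes with a length. The long Heatr1 (6780 bases) and the short Imp3 (924 bases) follow that order, and the short Nop10 (1109 bases), with a rise of 0.31, does not. The longest annotated transcript need not be the one expressed. RNA integrity is not known, and the part of length in the changes was not tested. Introns or exons of 8 genes (Dkc1, Gnl3, Ncl, Nop56, Nop58, Taf1d, Tsr1 and Wdr43) hold 29 annotated snoRNA genes on the same strand; 5 of these host genes rose, none fell and 3 were not called (median 0.12). In 23 genes another coding or long noncoding gene is annotated on the opposite strand, and 12 of those rose, 2 fell and 9 were not called. The library kit keeps strand, but whether the counting used it is not stated, so the values of these 23 are less certain.

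**Figure D4:**
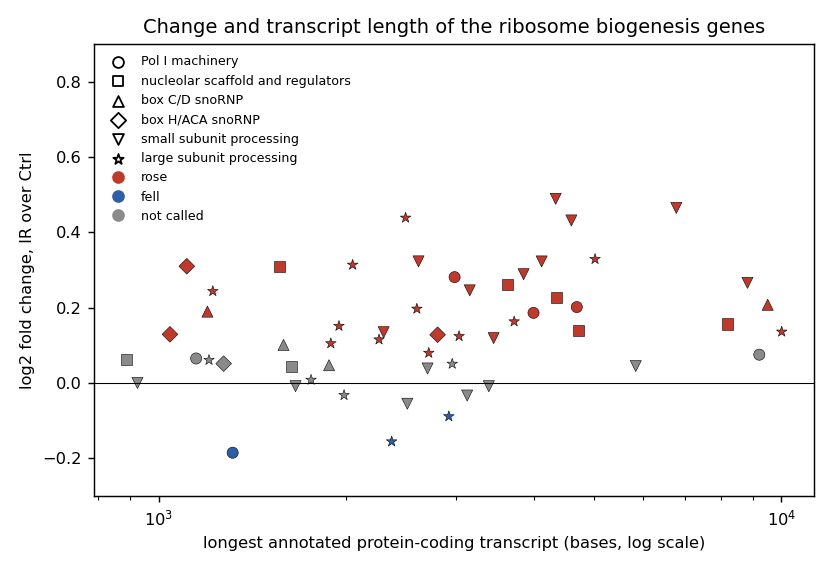
Log2 fold change (IR over Ctrl) of the 56 genes against the length of their longest annotated protein-coding transcript (bases, log axis), with role by marker shape and call by colour. Spearman's rho was 0.35, and the 3 genes that fell had transcripts of 1314, 2366 and 2923 bases.

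Markers of cell identity and division moved in the same libraries. The counts of each list stand beside 25.8% of all genes tested called higher and 28.9% called lower. Of 12 proliferation genes 7 rose, 1 fell and 4 were not called, and their summed level was 1663 to 1691 FPKM in IR libraries and 1559 to 1562 FPKM in Ctrl libraries. The 7 that rose were Mcm2, Mcm3, Mcm5, Mcm6, Tyms, Top2a and Ccna2, by 0.08 to 0.25 on the log2 scale, and Ccnb1 fell. Mki67, named after its values were seen, was at 6.46 ± 0.130 FPKM in the IR libraries and 6.69 ± 0.152 FPKM in the Ctrl libraries and was not called. Erythroid markers rose in 5 of 8 cases and fell in 3 (sums 555 to 562 FPKM in IR and 539 to 541 FPKM in Ctrl). Car2, which fell, made up most of the erythroid sum (means of 435 FPKM in IR and 455 FPKM in Ctrl). Megakaryocyte markers rose in 4 of 6 and fell in 1 (185 to 198 FPKM in IR and 152 to 155 FPKM in Ctrl), and basophil and mast cell markers rose in 4 of 5 (312 to 323 FPKM in IR and 232 to 238 FPKM in Ctrl). Lymphoid markers fell in 5 of 7 and rose in 2 (1073 to 1087 FPKM in IR and 1411 to 1436 FPKM in Ctrl). The 2 that rose were Nkg7 (means of 648 FPKM in IR and 535 FPKM in Ctrl) and Cd79a. Granulocyte and monocyte markers fell in 6 of 10 and rose in 4 (6457 to 6617 FPKM in IR and 5731 to 5767 FPKM in Ctrl). The 4 that rose, Mpo, Ctsg, Elane and Prtn3, hold most of that sum (Mpo averaged 2665 FPKM in IR and 2253 FPKM in Ctrl). Lyz2, at means of 437 FPKM in IR and 510 FPKM in Ctrl, was among the 6 that fell. Endothelial and stromal markers fell in all 3 tested (7.80 to 8.41 FPKM in IR and 13.6 to 15.8 FPKM in Ctrl). Ly6g, Rag1, Cd3e and Cdh5 were listed at 0 in 3 to 5 of the 6 libraries, with no value over 0.148 FPKM. Of the stem cell markers 2 of 7 rose and 3 fell (109 to 117 FPKM in IR and 133 to 141 FPKM in Ctrl). Of the 5 genes of the sort 1 rose and 3 fell (673 to 679 FPKM in IR and 825 to 835 FPKM in Ctrl): Slamf1 rose, Cd48, Flt3 and Ly6a fell, and Kit was not called. The part of these marker changes in the values of the ribosome biogenesis genes was not tested.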

How the data were processed

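RNA-seq of sorted mouse HSCs gave 6 libraries, 3 IR and 3 Ctrl. Per the submitters' processing notes, reads passed through fastp, HISAT2 and StringTie with GRCm38 (mm10); no source used here gives versions or settings. The authors deposited 1 FPKM value per gene and library, with no read counts, so count tests were not run. Of 21878 entries, 27 whose symbols had turned into dates were removed, leaving 21851 genes. Depth was estimated from the steps between low FPKM values (14400000 to 16300000 fragments); 25.9% to 27.4% of low values lay within 0.01 of a whole multiple, so reads were not recovered. Precision is limited by the 3 libraries per group.

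Values were tested as log2(FPKM + 1) in limma 3.58.1 (R 4.3.3) with a mean-variance trend, for 10281 genes with at least 1 FPKM in 3 or more libraries, with Benjamini-Hochberg adjustment over all of them. Groups and replicate numbers come from the sample titles. The test was tried on simulated data with known changes in far fewer genes than were called here, so its error rates on these data are not known. Alternatives were pseudocounts of 0.1 and 5, no filter and a filter of 5 FPKM, scaling to TPM, median-of-ratios scaling, quantile normalization, no trend, a replicate block and leaving out each library. Replicates within a group differed by somewhat more than sampling noise, with a median chi-square of 1.28 to 1.78 times the expected value. This rests on the estimated depths, and whether the spread is biological was not tested. The gene set, its role groups and the other lists were chosen with earlier results of these data known. Values of every library are given, in each role group, for the most abundant member and up to 2 called members each with the largest rise and the largest fall, for all members of groups of 4 or fewer, and for 3 genes with the smallest p in each other list. Further genes given in detail, and the 3 ratios between genes, were chosen after their values were seen. Symbols of 5 listed genes were matched through RefSeq synonyms. Coordinates are from the GENCODE M21 annotation of GRCm38 and promoter windows from RefSeq GRCm38.p6. A list of 12 noncoding snoRNA host genes is not used here.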

Additional observations from a re-analysis of the deposited data

How the results depend on the processing

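Over the alternatives that keep all 6 libraries, 33 to 36 of the 56 genes rose and 2 or 3 fell. Leaving out each library in turn gave 33 to 37 that rose, 2 or 3 that fell and a median log2 fold change of 0.12 to 0.15; 40 to 44 other pathway genes rose and 11 to 15 fell, with 11 without Ctrl replicate 2. With the replicate number as a block 34 of the 56 genes rose and 2 fell, and 46 other pathway genes rose and 15 fell; Pes1 and Ddx27 lost their calls under the block (limma adjusted p = 0.0571 and 0.0743). Same-numbered libraries of the groups correlated at 0.0085, -0.0314 and -0.0486 in their deviations from the group means and only those numbered 1 correlated best with each other. Such small correlations show no strong shared deviation, but they cannot exclude that same-numbered libraries are paired. Among single genes no called gene changed direction; 1127 values kept their side of the threshold, 22 lost the call and 4 gained one. Of the 1127, 11 changed sign, all in genes that were not called (Imp3, Nob1, Nop16, Npm3 and Tsr1). Besides Pes1, Ddx18 and Ddx27, Rpl11 lost its call without limma's trend (adjusted p = 0.0589), and Rrp9 gained one under quantile normalization (adjusted p = 0.0490). Utp20 was not tested at a filter of 5 FPKM. With 3 libraries per group, the upper bound of the 95% interval was as high as 0.26 (Npm3) among the 18 genes not called.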

Other observations

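Genes of the RNA exosome and of rRNA trimming, which act beside the ribosome biogenesis genes, were called about as often in each direction as other genes: 5 of 17 rose (29.4%), 6 fell (35.3%) and 6 were not called, beside 25.8% and 28.9% of all genes tested. Eri1, an exonuclease that trims the end of a mature rRNA, had 43.3, 43.5 and 42.8 FPKM in the IR libraries and 35.3, 34.8 and 36.1 FPKM in the controls. It rose by 0.28 on the log2 scale, with all IR libraries above all controls. Isg20l2, another nucleolar exonuclease, had 12.4, 13.1 and 12.3 FPKM in the IR libraries and 10.3, 10.03 and 10.2 FPKM in the controls, and rose by 0.28 without overlap. Exosc9, a core exosome subunit, had 44.4, 41.8 and 42.2 FPKM in the IR libraries and 49.1, 49.4 and 49.0 FPKM in the controls, and fell without overlap (log2 fold change -0.20, SE 0.031, limma adjusted p = 0.000411).

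Of 6 tested genes that link the nucleolus to p53 3 rose (beside 25.8% of all genes tested), none fell (beside 28.9%) and 3 were not called. Rpl5, a ribosomal protein that binds MDM2 when ribosome assembly is disturbed, had 428, 428 and 417 FPKM in the IR libraries and 383, 390.0 and 383 FPKM in the controls. Rpl11, its partner, had 360.0, 349 and 343 FPKM in the IR libraries and 338, 323 and 325 FPKM in the controls, and Trp53, which encodes p53, 235, 239 and 233 FPKM in the IR libraries and 215, 219.8 and 212 FPKM in the controls. Ribosomal protein genes have many near-identical pseudogenes, so the values of Rpl5 and Rpl11 are less certain. Rpl5, Rpl11 and Trp53 rose without overlap, by 0.14, 0.09 and 0.13 on the log2 scale. Cdkn1a, Mdm2 and Mdm4 were not called, at log2 fold changes of -0.12, 0.06 and 0.02, and their groups overlapped. Cdkn1a had means of 23.0 FPKM in the IR libraries and 25.0 FPKM in the controls (limma adjusted p = 0.0598).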
